A study of Homo sapiens with 2 samples.

Results

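The TRiC chaperonin, also called CCT, is the folding machine of the cytosol of eukaryotes, and its 8 subunit genes are described here in the human line SW13. The rows were taken by gene symbol from a deposited table of 23608 gene rows, and all of TCP1, CCT2, CCT3, CCT4, CCT5, CCT6A, CCT7 and CCT8 were found, with 1 row each. The ribosome profiling library holds ribosome-protected RNA fragments of SW13 cells, and the RNA sequencing library holds total RNA of SW13 cells, with 1 library per assay and no replicates. Both groups came from cells transfected with 5 µg of the plasmids Add2-Mhrt779 and Add2-Hotair, which carry murine long non-coding RNAs, and collected 48 hours later, so there is no untransfected group. The comparison addresses which RNAs were found with ribosomes. It says nothing on whether the transfected RNAs changed TRiC.

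SW13 is an established line that the labels give as human adrenal adenocarcinoma. The 8 marker genes of the adrenal cortex, NR5A1 and the steroid enzymes among them, were listed at 0 in both libraries. Of the epithelial markers, KRT18 had 139 FPKM in ribosome profiling and 57.2 FPKM in RNA sequencing, and KRT8 had 69.7 FPKM in ribosome profiling and 41.9 FPKM in RNA sequencing, while EPCAM and CDH1 were listed at 0. FPKM are fragments scaled by transcript length and by library, as the authors computed them. The chromatin remodellers SMARCA4 and SMARCA2, whose low expression is a known trait of this line, had 0.68 and 1.75 FPKM in ribosome profiling and 3.99 and 1.72 FPKM in RNA sequencing. Summed over all rows, FPKM came to 6457389 in ribosome profiling and 1846987 in RNA sequencing, and the number of reads behind a value is unknown. In ribosome profiling 1 row, at 4180970 FPKM, made up most of that sum. Over the 2259 protein-coding genes tested below, the sums were 165156 FPKM in ribosome profiling and 114616 FPKM in RNA sequencing.

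TRiC is built of stacked rings, each with one copy of every subunit, around a chamber in which a newly made protein folds when ATP closes the lid. Actin and tubulin reach their native form through it, as do many proteins with WD40 repeats. Prefoldin hands such chains to the ring. Since the complex needs its subunits in equal number, the levels of the 8 mRNAs and of their ribosome-bound fragments were set side by side.

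All 8 coding regions are of nearly the same length but of different sequence. In the principal GENCODE transcripts the coding region ranged from 1593 nucleotides in CCT6A to 1668 nucleotides in TCP1. Between 2 subunits, 58.7% to 64.8% of aligned coding bases were identical, with a median of 62.8% over 28 pairs. No 30-base window of one subunit's coding sequence was found in another subunit. Pseudogene copies are much closer. The zeta subunit gene CCT6A shared 94.7% of aligned bases with CCT6P1 and 95.2% with CCT6P3, and 80.7% with CCT6B, a related zeta gene known for expression in testis. In these 3 genes, the longest run of CCT6A coding sequence found unchanged was 80 bases in CCT6P1, 80 bases in CCT6P3 and 29 bases in CCT6B. The pseudogenes CCT6P2 and CCT6P4 were not compared in this way. They held 13.5% and 2.43% of the 30-base windows of CCT6A, against 14.5% in CCT6P1 and 15.0% in CCT6P3. The first stretch of the read length, 50 bases, that CCT6A has in common with both CCT6P1 and CCT6P3 lies at coding bases 202 to 251. The letters are from GENCODE transcripts on build GRCh38, where CCT6A, CCT6P1 and CCT6P3 lie on chromosome 7 and CCT6B on chromosome 17. The stretch is shown with the same bases of CCT6B, because a read from this stretch cannot be given to 1 of the first 3 rows, and capitals mark the bases of CCT6B that differ from CCT6A.
CCT6A: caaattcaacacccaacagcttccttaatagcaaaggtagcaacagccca
CCT6P1: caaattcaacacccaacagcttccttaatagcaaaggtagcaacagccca
CCT6P3: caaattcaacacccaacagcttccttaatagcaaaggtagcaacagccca
CCT6B: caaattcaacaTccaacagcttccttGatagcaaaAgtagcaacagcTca

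The promoters of the subunits with the highest ratios of ribosome profiling over RNA sequencing, CCT8 and CCT2, and with the lowest, TCP1, are shown for the 170 bases before the start site, from RefSeq in build GRCh38.p14, which is not the build of the deposited table. They lie at chr21:29073649-29073818 on the minus strand, chr12:69585289-69585458 on the plus strand and chr6:159789603-159789772 on the minus strand. Capitals mark CCAAT and the core CGGAAGT that ETS factors bind, each on either strand, so as ATTGG or ACTTCCG where reversed.
CCT8: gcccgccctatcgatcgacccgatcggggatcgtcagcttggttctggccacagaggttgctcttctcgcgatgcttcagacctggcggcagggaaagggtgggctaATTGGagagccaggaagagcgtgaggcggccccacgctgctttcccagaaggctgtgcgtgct
CCT2: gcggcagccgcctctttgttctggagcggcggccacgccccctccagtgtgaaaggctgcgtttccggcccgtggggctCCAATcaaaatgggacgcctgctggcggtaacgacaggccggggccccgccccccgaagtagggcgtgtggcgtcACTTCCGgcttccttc
TCP1: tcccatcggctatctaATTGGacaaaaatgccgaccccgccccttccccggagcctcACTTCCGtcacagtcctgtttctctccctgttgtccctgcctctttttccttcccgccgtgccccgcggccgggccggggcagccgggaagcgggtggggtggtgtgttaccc
Promoters were at hand for 7 of the 8 subunits, with 9 listed starts, and 250 bases before each listed start were searched. A subunit was counted if any of its starts had the letters, while the share over all promoters is per window, so the units differ. The letters CGGAAGT stood before TCP1, CCT2 and CCT7, that is 3 of 7 subunits, and in 5.69% of 35116 promoter windows of that length. CCAAT stood before CCT8, CCT2, CCT3 and TCP1, that is 4 of 7, and in 32.0% of all windows. The GC box GGGCGG stood before the same 4 genes and in 42.6% of all windows, and the TATA letters TATAAA stood before none of the 7 and in 10.7% of all windows. The paired heat shock element letters GAANNTTC stood before CCT2 and TCP1 and in 5.78% of all windows, and TTCNNGAA stood before none of the 7 and in 6.62%. These are letter matches, chosen after the sequences had been read, and both CCT8 and TCP1, the ends of the order of ratios, hold some of them.

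In level, the 8 subunits lay close together in both libraries. CCT3, the gamma subunit on chromosome 1 from 156278752 to 156316785 in the table's coordinates, which use hg19 names, was the most abundant in each, with 121 FPKM in ribosome profiling and 70.3 FPKM in RNA sequencing. CCT7, the eta subunit on chromosome 2 from 73461364 to 73480150, had 113 FPKM in ribosome profiling and 65.6 FPKM in RNA sequencing. These 2 genes stood at the top of the group with ribosomes and were among the top 3 in total RNA. CCT5, the epsilon subunit on chromosome 5 from 10250282 to 10266501, took place 4 in both orders, with 88.9 FPKM in ribosome profiling and 50.1 FPKM in RNA sequencing. CCT6A, on chromosome 7 from 56119378 to 56131682, had 75.5 FPKM in ribosome profiling, the lowest of the 8, and 43.7 FPKM in RNA sequencing.

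The lower end of the RNA sequencing order was tight, and its genes parted a little more with ribosomes. CCT8, the theta subunit on chromosome 21 from 30428648 to 30446010, had 102 FPKM in ribosome profiling and 44.2 FPKM in RNA sequencing. CCT2, the beta subunit on chromosome 12 from 69979208 to 69995357, had 85.4 FPKM in ribosome profiling and 41.8 FPKM in RNA sequencing. CCT4, the delta subunit on chromosome 2 from 62095262 to 62115806, had 82.8 FPKM in ribosome profiling and 43.1 FPKM in RNA sequencing. With CCT6A, these 3 genes lay within 41.8 to 44.2 FPKM in total RNA.

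TCP1, the alpha subunit and the first of the family to be described, broke the order. It had 78.2 FPKM in ribosome profiling and 66.9 FPKM in RNA sequencing, so it took place 7 of 8 with ribosomes and place 2 of 8 in total RNA. Its row covers chromosome 6 from 160181291 to 160210735. Among the 2259 tested protein-coding genes, TCP1 took rank 393 in ribosome profiling and rank 284 in RNA sequencing, and CCT8 took rank 308 in ribosome profiling and rank 440 in RNA sequencing. With 1 library per assay there is no spread between replicates by which neighbours in either order could be told apart. In libraries from whole cultures, fewer cells with an mRNA and less of it per cell cannot be told apart either.

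**Figure D1:**
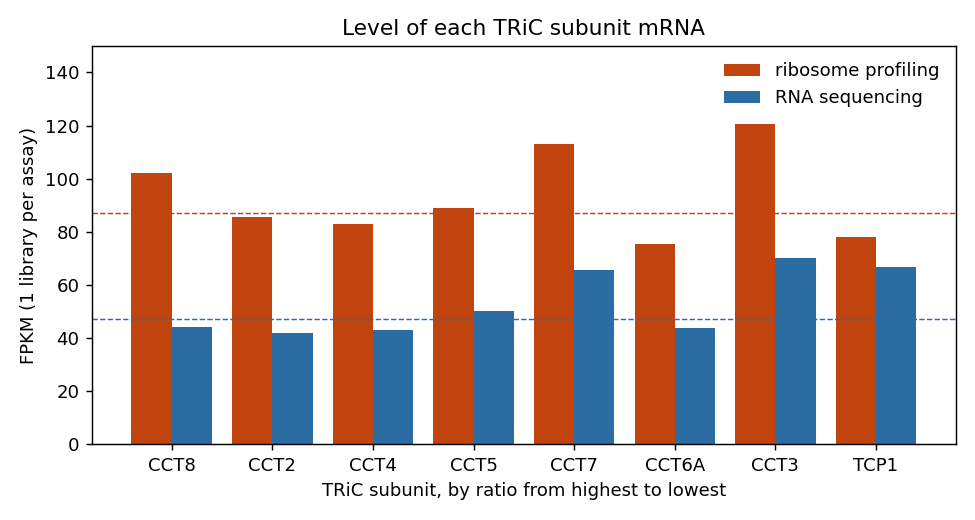
FPKM of each TRiC subunit in the ribosome profiling library (left bars) and the RNA sequencing library (right bars), with dashed lines at the median of the 8 subunits, 87.2 and 47.2 FPKM. Each ribosome profiling bar stands above its RNA sequencing bar, by least in TCP1, at 78.2 against 66.9 FPKM.

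The highest subunit was 1.60-fold above the lowest in ribosome profiling and 1.68-fold above it in RNA sequencing. The mean over the 8 genes was 93.4 ± 16.7 FPKM in ribosome profiling and 53.2 ± 12.2 FPKM in RNA sequencing, where the SD is over subunits and not over replicates. That is a coefficient of variation of 17.9% with ribosomes and 23.0% in total RNA. Across the 8 genes, which share both libraries, the levels in the 2 assays had a Spearman rho of 0.48 and a Pearson r of 0.53 on the log2(FPKM + 1) scale. Without TCP1, left out after its values were seen, these were 0.82 and 0.85 over 7 genes. Over the tested protein-coding genes the Spearman rho was 0.62.

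Other complexes were less even in level. The 14 genes of the 20S proteasome core, the barrel that cuts proteins, had coefficients of variation of 93.1% in ribosome profiling and 73.4% in RNA sequencing, and their highest member was 36.5-fold above their lowest in ribosome profiling and 12.7-fold in RNA sequencing. The MCM helicase, which opens DNA for replication and also holds one copy of each of its 6 subunits, had 96.6% in ribosome profiling and 75.8% in RNA sequencing, with folds of 6.92 in ribosome profiling and 4.78 in RNA sequencing. MCM7 at 133 FPKM in ribosome profiling and 57.0 FPKM in RNA sequencing stood far above the rest of that group, which lay between 19.3 and 41.4 FPKM in ribosome profiling. The difference in evenness between TRiC and these complexes was not tested, since each group is 1 set of genes in 1 pair of libraries.

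Ribosome profiling was then set over RNA sequencing for each subunit, as the log2 ratio of FPKM + 1 minus its median over 2734 tested genes, those with a mean of at least 10 FPKM over both libraries. A centred ratio of 0 is thus the median tested gene, whose FPKM + 1 before centring was 1.31 times as high in ribosome profiling. All 8 subunits passed the filter. Of them, 7 lay above the median gene, where 50.0% of tested genes do by construction and 51.6% of tested protein-coding genes do, and TCP1 lay below it. The median of the 8 was 0.41, or 1.33-fold above the median gene, with single values from -0.17 to 0.80.

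None of the 8 reached 2-fold above that gene, where 13.1% of the 2734 tested genes and 10.0% of the protein-coding ones did. None reached 2-fold below it, where 19.7% of tested genes did. CCT8 had the highest centred log2 ratio at 0.80, or 1.74-fold above the median gene. CCT2 and CCT4 followed at 0.63 and 0.54. A group of 4, CCT5 at 0.43, CCT7 and CCT6A at 0.39 and CCT3 at 0.38, lay close together, and TCP1 stood alone at -0.17, 1.12-fold below the median gene, although its FPKM as deposited was 1.17-fold higher in ribosome profiling than in RNA sequencing. The gap between TCP1 and the next subunit, CCT3, was 0.55, wider than the whole range of the other 7, which was 0.42. That pattern changed when the whole rows of copies were added to CCT6A, although how many of their reads came from CCT6A is unknown. With CCT6P1, CCT6P3 and CCT6B summed into CCT6A, the subunit next to TCP1 was CCT6A. The centred ratios were then -0.17 for TCP1, 0.087 for CCT6A and 0.80 for CCT8, so the gap was narrower than the range of the other 7.

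**Figure D2:**
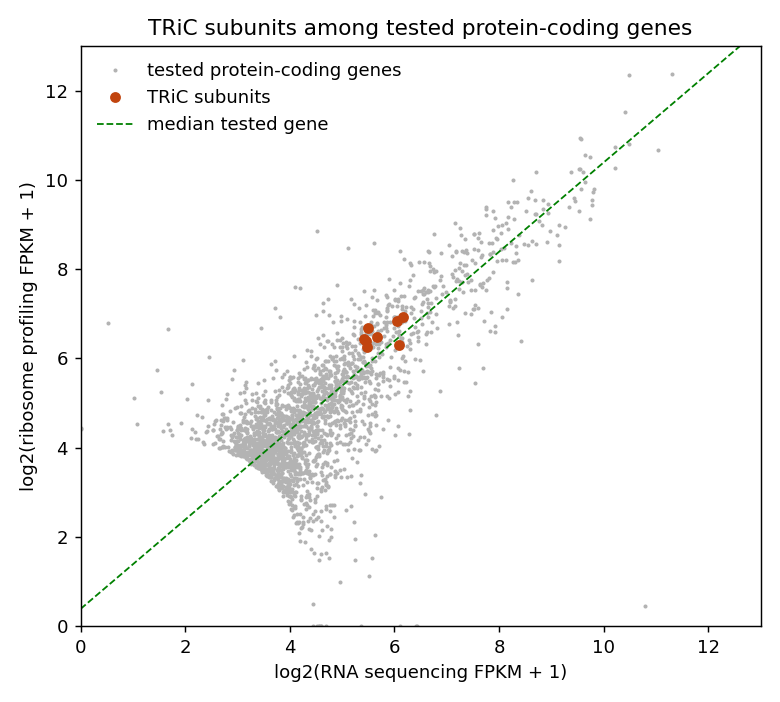
Each point is a tested protein-coding gene, with log2(RNA sequencing FPKM + 1) across and log2(ribosome profiling FPKM + 1) upwards, and the dashed line is the median tested gene. The 8 TRiC subunits sit in 1 small patch above the line, apart from TCP1, which lies just under it at a centred ratio of -0.17.

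The SD of the centred ratio over the 8 subunits was 0.28, and 0.16 without TCP1, against 1.08 over the 2259 tested protein-coding genes. The next comparison was with genes of like level. The 134 other tested protein-coding genes with a mean between 59.6 and 95.5 FPKM, the lowest and the highest TRiC mean, had a median centred ratio of 0.48 and an SD of 0.79. Of these 134 genes, 100 lay above the median tested gene, or 74.6%, and 22 were at least 2-fold above it. The TRiC median of 0.41 was therefore near that of genes of like level, and 7 of 8 above the median gene was near their share. Centred on those genes, a choice made after seeing the data, the TRiC median was -0.074 and 3 of 8 subunits lay above 0. The range spanned by the 8 subunits held 74 of the 134, or 55.2%.

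**Figure D3:**
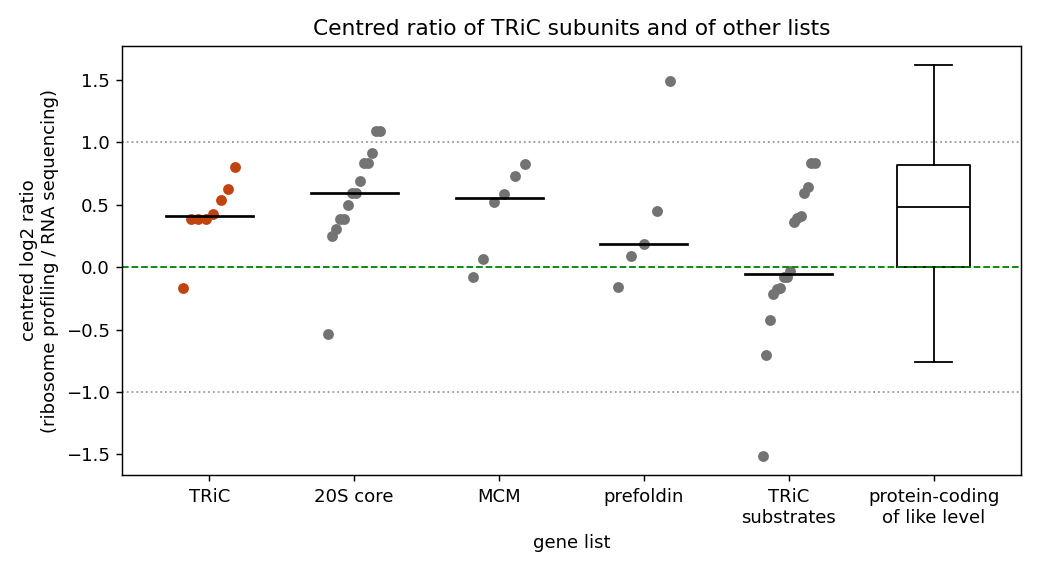
Centred log2(ribosome profiling/RNA sequencing) for each tested member of 5 gene lists, with black bars at list medians, and for 134 protein-coding genes of like level as a box (quartiles and median, whiskers from percentile 5 to 95). The dashed line is the median tested gene and dotted lines are 2-fold above and below it. TRiC spans -0.17 to 0.80, within the dotted lines, while the 20S core spans -0.54 to 1.09.

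The log2 ratio in the authors' deposited table, with ribosome profiling on top, was positive for all 8 subunits, and none was called significant, where 1.30% of the 4849 rows with the status OK were. It ran from 0.22 for TCP1 to 1.21 for CCT8 in the authors' deposited table, and the q-values there lay between 0.492 for CCT7 and 0.932 for TCP1. The model error taken from the authors' deposited table is the ratio divided by its statistic, without sign. It was smallest for CCT7 at 0.53 and largest for CCT5 at 1.04, with a median of 0.92. The SD of 0.28 between subunits was thus smaller than the error of any single one. For CCT8 minus TCP1, the pair chosen as the extremes, the difference in the authors' deposited table was 0.98 with a combined error of 1.32 and a 95% interval from -1.59 to 3.56. Of the 28 pairs, 0 had an interval that left out 0, if the errors are independent. Such wide intervals do not show that the subunits were recovered alike: they allow differences of several fold.

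**Figure D4:**
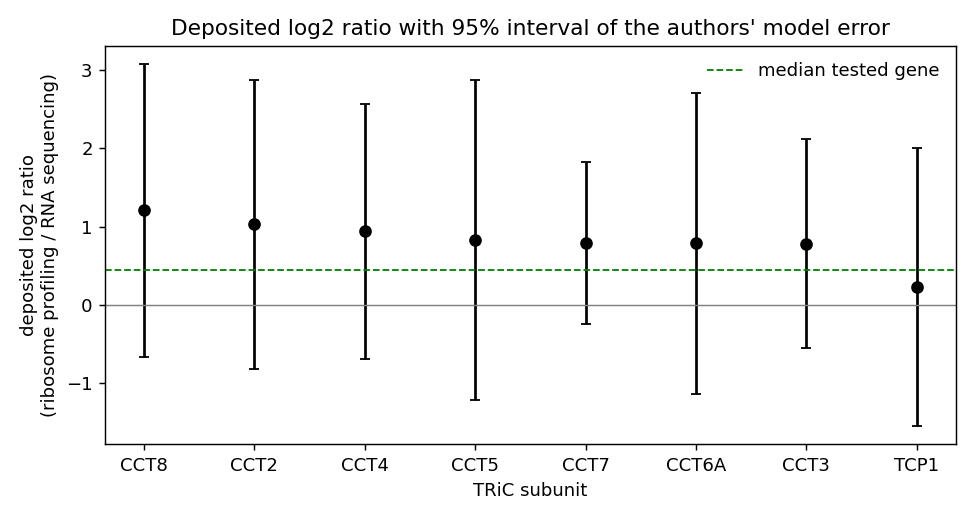
Deposited log2(ribosome profiling/RNA sequencing) for each subunit, with 95% intervals from the authors' model error (bars), which hold no spread between cultures. The grey line is 0 and the dashed line the median tested gene, at 0.44, and the intervals of all 8 subunits, TCP1 and CCT8 among them, cover both lines.

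The ring is known to have a side of subunits that bind ATP strongly, TCP1, CCT2, CCT4 and CCT5, and a side that binds it weakly, CCT3, CCT6A, CCT7 and CCT8. The strong side had ribosome profiling levels from 78.2 to 88.9 FPKM, and the weak side had both the highest and the lowest levels, from 75.5 to 121 FPKM. In RNA sequencing the 2 sides overlapped almost wholly, at 41.8 to 66.9 FPKM and 43.7 to 70.3 FPKM. The median centred ratio was 0.48 on the strong side, which includes TCP1, and 0.39 on the weak side, which includes CCT8, and their ranges overlapped. By the mean the order was reversed, at 0.36 on the strong side and 0.49 on the weak side.

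Ribosome footprints lie mostly on coding sequence, while FPKM divides by the length of the whole transcript. Coding sequence made up 85.0% of the principal GENCODE transcript of CCT7, 82.0% of CCT8, 78.6% of CCT2 and 76.0% of CCT3. It made up 66.7% of TCP1, 64.2% of CCT4, 58.6% of CCT6A and 44.2% of CCT5. The 3' untranslated region of CCT5, at 1632 nucleotides, was the longest of the 8. Which transcripts the authors counted is not given in the sources used here, and the part of transcript make-up in the ratios was not tested.

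**Figure D5:**
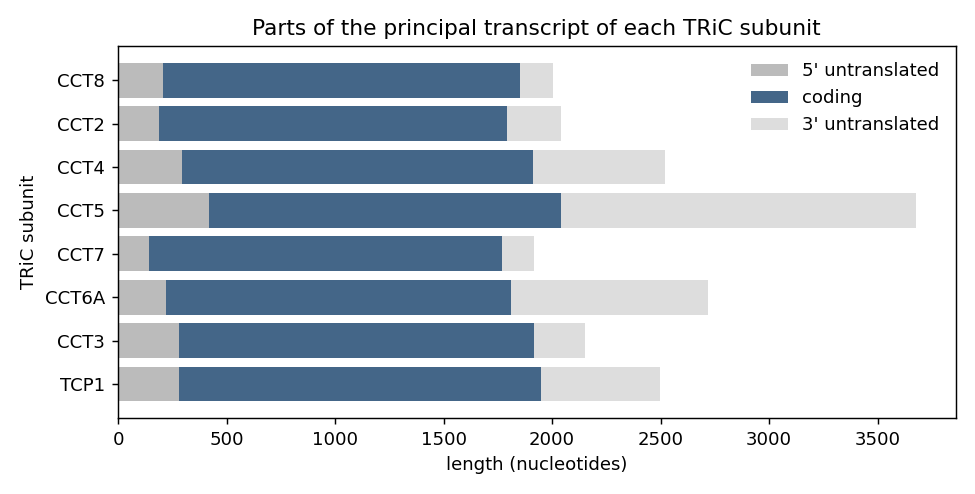
Length in nucleotides of the 5' untranslated, coding and 3' untranslated parts of the principal GENCODE transcript of each subunit, from the highest centred ratio at the top (CCT8) to the lowest (TCP1). Coding lengths stay between 1593 and 1668 nucleotides, while the 3' untranslated part is longest in CCT5, at 1632.

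Reads shared with copies touch some of the rows. Of the 30-base windows of the coding sequence, 36.2% of those of TCP1 were also found in transcripts of other genes, as were 29.97% in CCT8, 29.2% in CCT6A and 23.7% in CCT5. The shares were 8.69% in CCT7 and 1.57% in CCT4, and no such window was shared in CCT2 or CCT3. With 50-base windows these 4 genes shared between 9.65%, in CCT6A, and 11.8%, in TCP1, and the other 4 shared none. TCP1 and CCT8, which had the lowest and the highest ratio, thus both stood among the genes with most shared sequence. For CCT8 all of it was shared with the pseudogene CCT8P1, and for TCP1 the pseudogenes TCP1P3 and TCP1P1 held 20.1% and 18.1% of its 30-base windows. The part of shared reads in the ratios was not tested.

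Copies of CCT6A had rows of their own. CCT6P1 had 12.7 FPKM in ribosome profiling and 14.9 FPKM in RNA sequencing, and CCT6P3 had 12.3 FPKM in ribosome profiling and 14.9 FPKM in RNA sequencing. Their centred ratios of -0.60 and -0.65 lay below that of CCT6A, at 0.39. The difference of CCT6A minus CCT6P1 in the authors' deposited table was 1.02, with a combined error of 1.32 and a 95% interval from -1.57 to 3.60. CCT6B had 2.22 FPKM in ribosome profiling and was listed at 0 in RNA sequencing. Summing the whole rows of these copies into CCT6A took its centred ratio to 0.087. Such a sum counts every read of the copies as one of CCT6A, and how many were is unknown. CCT8L2, a gene related to CCT8, was listed at 0 in both libraries.

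Several subunit genes host or overlap other rows. TCP1 and ACAT2, which encodes an acetyl-CoA acetyltransferase, lie on opposite strands and overlap by 397 nucleotides of their principal transcripts, which is 15.9% of TCP1, with 8 of these nucleotides in its coding sequence. ACAT2 had 14.3 FPKM in ribosome profiling and 11.8 FPKM in RNA sequencing, at a centred ratio of -0.13, close to that of TCP1. Whether strand was used in counting is not given in the sources used here, so reads in the overlap cannot be told apart and both rows are uncertain there. The introns of TCP1 also carry small nucleolar RNAs, of which SNORA20 had 598 FPKM in ribosome profiling and 306 FPKM in RNA sequencing and SNORA29 was listed at 0 in both. SNORA15, in an intron of CCT6A, had 233 FPKM in ribosome profiling and was listed at 0 in RNA sequencing. TSACC, which shares the CCT3 locus, was listed at 0 in ribosome profiling and had 1.02 FPKM in RNA sequencing.

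Among the partners of TRiC, the tested prefoldin genes covered a wider range than the ring, through 1 gene. Prefoldin, the hexamer that delivers unfolded chains, had 5 of its 6 genes tested, with a median of 0.18, and 1 of them passed 2-fold. That gene, PFDN6, had 90.9 FPKM in ribosome profiling and 23.9 FPKM in RNA sequencing, and its row lies on an alternative chromosome 6 sequence. The authors' deposited table marks the PFDN6 row as NOTEST, that is, without a test by the authors. PFDN5, the most abundant and the lowest in ratio, had 107 FPKM in ribosome profiling and 91.3 FPKM in RNA sequencing. VBP1, the prefoldin subunit that did not pass the filter, had 12.7 FPKM in ribosome profiling and 3.89 FPKM in RNA sequencing. Its mean was 8.31 FPKM and its centred ratio 1.10, also above the TRiC range. The tested prefoldin ratios thus ran from -0.16 to 1.49, past the upper end of the TRiC range through PFDN6 alone. Without PFDN6 the highest tested gene was PFDN4 at 0.45, and the tested prefoldin range was narrower than that of TRiC. That rests on the filter, which leaves out VBP1 at 1.10.

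No gene of the 3 phosducin-like and thioredoxin-like cochaperones of TRiC reached a mean of 10 FPKM. TXNDC9 had 16.3 FPKM in ribosome profiling and 2.09 FPKM in RNA sequencing. PDCL3 had 7.92 FPKM in ribosome profiling and 5.71 FPKM in RNA sequencing. PDCL was lower than PDCL3 in both assays, and of the 3 genes TXNDC9 differed most between the assays. The related proteins MKKS, BBS10 and BBS12, which assemble the BBSome, also stayed under 10 FPKM, with 6.38, 4.09 and 1.14 FPKM in ribosome profiling and 3.43, 5.90 and 0.73 FPKM in RNA sequencing.

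Genes for proteins that TRiC folds had a lower median than the ring itself. Of 25 known substrates, 16 were tested, with a median centred ratio of -0.053, against 0.41 for the subunits and 0 for all tested genes. Of the 16, 7 lay above the median gene, 0 reached 2-fold above it and 1 reached 2-fold below it. Gamma-actin, ACTG1, had 992 FPKM in ribosome profiling and 801 FPKM in RNA sequencing, at -0.079. The alpha-tubulin gene TUBA1A had 564 FPKM in ribosome profiling and 240.3 FPKM in RNA sequencing and the highest ratio of the 16, 0.84. GNB1, a WD40 protein that forms the beta subunit of G proteins, had 21.9 FPKM in ribosome profiling and 48.9 FPKM in RNA sequencing and the lowest of the 16, -1.51. The other 9 substrates had a mean under 10 FPKM, and 4 of them, named after their values were seen, lay lower than GNB1 in ratio. HDAC3 and CCNE1 were listed at 0 in ribosome profiling and had 8.59 and 3.49 FPKM in RNA sequencing. VHL and FZR1 had 0.40 and 1.82 FPKM in ribosome profiling and 5.34 and 5.85 FPKM in RNA sequencing. Of the rest of the 9, MLST8 at 0.33, WRAP53 at 0.099 and STAT3 at 0.066 lay above the median gene. RPTOR at -0.84 and TUBA4A at -1.31 lay below it. The difference between the subunits and their substrates was not tested, and tubulin and actin genes share sequence within their families, which makes single rows uncertain.

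The centred ratios of the other complexes lay around those of TRiC. The 20S proteasome core had a median of 0.59 and an SD of 0.42, with 13 of 14 genes above the median gene, 2 of them past 2-fold. PSMB1 had 369 FPKM in ribosome profiling and 132 FPKM in RNA sequencing, PSMA6 had the highest ratio of 1.09 and PSMB2 the lowest of -0.54. The MCM helicase had a median of 0.55 and an SD of 0.37, from -0.081 for MCM5 to 0.82 for MCM7. TRiC, at 0.28, had the lowest SD of these 3 complexes, a description of 1 pair of libraries with no test. By the range, highest minus lowest, MCM was narrower, at 0.91 against 0.97 for TRiC and 1.63 for the 20S core. The chaperonin of mitochondria, HSPD1, had 248 FPKM in ribosome profiling and 111 FPKM in RNA sequencing, at a centred ratio of 0.77. Its lid HSPE1 had 122 FPKM in ribosome profiling and 47.2 FPKM in RNA sequencing, at 0.96.

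The genes nearest to the middle of the TRiC group in both libraries came from unrelated processes. By the distance in log2(FPKM + 1) over the 2 libraries, the 5 nearest of 2208 tested protein-coding genes outside the lists were COX7A2, ARPC3, SQSTM1, SRP14 and NKX2-3, at distances from 0.091 to 0.12. COX7A2, of cytochrome c oxidase, had 91.8 FPKM in ribosome profiling and 48.8 FPKM in RNA sequencing. ARPC3, of the actin-branching Arp2/3 complex, had 83.7 FPKM in ribosome profiling and 49.6 FPKM in RNA sequencing. The measure rests on 1 value per library.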

How the data were processed

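RNA of SW13 cells was measured by ribosome profiling and by RNA sequencing, with 1 library each. The deposited table gives 1 FPKM value per gene and library, computed by the authors. It also holds the authors' log2 ratio, test statistic, p-value and q-value per row. Per the submitters' processing notes, TopHat2 2.0.8b, Bowtie2 2.0.0.6, SAMtools 0.1.18, bedtools 2.16.1 were run and hg19 and mm10 named as builds. Not given in the sources used here are the roles of these tools, the program behind the table and the handling of reads with several matches. FPKM keeps no depth, so no counting interval is given.

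A ratio is the log2 of ribosome profiling over RNA sequencing, with 1 added to each FPKM, less the median over tested genes. Tested genes have a mean of at least 10 FPKM, and rows marked FAIL or HIDATA were left out. The pseudocount of 1 understates ratios of low genes. With no replicates, no test was run. In 100% of 4542 rows the deposited statistic, read as a normal deviate without its sign, gave back the authors' p-value to within 0.001. The model error was therefore taken as the absolute value of the ratio over the statistic. Gene classes came from RefSeq symbols, which matched 22660 of 23608 rows. Lengths and shared windows came from GENCODE transcripts on both strands. The centring step was run on simulated data in which few genes were changed, as many up as down. In such a setting the median recovers the zero by design, so the run cannot show whether the zero is right for these data. The members and lists were chosen with earlier results of these data known. Named genes are the members, rows at their loci, the most abundant and extreme genes of each list and the 5 nearest genes, and other members of small lists were named after their values were seen. Amino acid sequences were not used here. Python 3.11.15, pandas 2.3.3, numpy 2.4.6 and Biopython 1.88 were used.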

Additional observations from a re-analysis of the deposited data

How the results depend on the processing

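No paired analysis was possible because each assay has 1 library, and for the same reason no replicate could be left out. The size of the TRiC ratio depends on which genes set the zero. The median of 0.41 became 0.95 when genes from 1 FPKM on were tested, 0.80 without any filter or without centring, 0.23 with a filter of 30 FPKM, and -0.074 when centred on protein-coding genes of like level, a choice made after seeing the data. The number of subunits above the zero was 7, against 8 with a filter of 1, no filter or no centring, and 3 with genes of like level. The number at least 2-fold above the zero was 0, against 3, 2 and 2 with a filter of 1, no filter and no centring. TCP1 lay between -0.34 and 0.38 over 10 alternatives, below 0 in 7 of them, and the other 7 subunits were above 0 in all 70 of their values. Centring on genes of like level is not among these 10. The 70 values are not separate checks, since a change of filter or centring shifts all subunits alike. No filter and no centring gave the same values. Differences between subunits do not depend on the zero, so a change of filter or centring could not alter them. The SD of 0.28 and range of 0.97 became 0.16 and 0.42 without TCP1, chosen after seeing the data. They lay at 0.26 to 0.30 and 0.91 to 0.98 under the alternatives that change the ratios themselves. Those were pseudocounts of 0.1 and 5, the authors' deposited ratio, and CCT6A summed with its copies. The last left the range at 0.97, since CCT6A was at neither end.

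With a filter of 1 FPKM the medians were 1.14 for the 20S core, 1.10 for MCM and 0.86 for prefoldin, against 0.47, 0.53 and 0.0067 with a filter of 30, and MCM had 0.94 with no filter or no centring. Tested genes at least 2-fold above the median gene numbered 358, against 1681 with a filter of 1, 182 with a filter of 30, 1413 with no filter and 645 with no centring. Those at least 2-fold below numbered 538, against 2127, 261 and 3184 with filters of 1, 30 and none. No median exists for the cochaperones at 10 FPKM, since none was tested.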
